A study of Pavo cristatus and Gallus gallus and Meleagris gallopavo with 54 samples.

Results

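In chicken embryonic fibroblasts 704 genes had more than 1 peak of transcription starts tied to them. These are the genes to which the deposited chicken table of cap analysis of gene expression (CAGE) ties at least 2 peaks, with LOC identifiers left out. A peak is a cluster of tags at a transcription start. They make up 704 of the 7769 genes with a symbol (9.06%) and of 8168 identifiers in all, and they hold 1553 of the 9084 peaks (17.1%). Another 49 LOC identifiers with several peaks entered the tests and are not described. In each gene, the main peak is the one with the highest mean over the 6 libraries, the others are minor peaks, and a share is the part of the gene's summed TPM (TPM: a library's tags scaled to 1 common total) that a peak carries. A gene of this kind can be switched on from separate promoters, and CAGE, which captures the capped 5′ end of RNA, shows how much each start is used. Separate promoters can give messages that differ in their first exon, their untranslated leader or their protein's N-terminus, and closely spaced starts can belong to 1 broad promoter. In fibroblasts the genes of collagen, fibronectin and the actin cytoskeleton carry much of the message, and several of them appear here.

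The cells came from the trunk of 3 chicken embryos (Gallus gallus, no genetic change) of about 10 days' incubation at 38.5 °C. Head, limbs, skin and internal organs had been removed, and the cells were cultured to passage 5 with 10% fetal bovine serum. Embryos 05 and 06 were female and embryo 07 was male. Cultures with the same number in the labels were read as 1 embryo. Each embryo so read was grown in DMEM/F12 (called F12 here) and in DMEM high glucose, which gave 4 female and 2 male libraries. The 2 male libraries share 1 embryo, so sex and embryo cannot be told apart, and p-values measure the spread between cultures. Female birds carry a Z and a W chromosome and males carry a pair of Z. Values are given with embryo 05 before embryo 06 before embryo 07, and F12 before high glucose within each.

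The libraries held 10878066 to 12055368 tags, so 10 TPM stood for 109 to 121 tags, and 3 tags, used as the floor for a listed 0, were 0.249 to 0.276 TPM. Counting intervals and floors cover counting error only. Of 20 fibroblast markers 19 had a peak, with a summed level of 43842 to 50702 TPM, and TWIST2 had none. Of the markers of other cell types, 0 of 16 for blood, 1 of 18 for skeletal muscle, 1 of 14 each for endothelium, epithelium and nerve, and 6 of 14 for cartilage had a peak. The summed cartilage level was 95.1 to 167 TPM in females and 108 to 124 TPM in males. The muscle marker ran from 76.1 to 307 TPM in females and from 260 to 331 TPM in males, and the epithelial one from 1.88 to 88.9 and from 35.6 to 60.6 TPM. The 1 nerve marker with a peak had 8.17 to 13.7 TPM in females and 2.94 to 4.15 TPM in males, which did not overlap. It reached 10 TPM, which the authors required of a peak in at least 1 library, in females only, which favoured such a difference. The endothelial marker had 39.6 to 41.5 and 38.0 to 44.1 TPM. Their part in the results was not tested.

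Most of these genes had 1 strong start and 1 weak one. There were 601 genes with 2 peaks (85.4%), 75 with 3, 20 with 4, 6 with 5, 1 with 7 and 1 with 9. The main peak had a median of 57.3 TPM and a single minor peak a median of 13.2 TPM. Summed over their peaks the genes had a median of 77.1 TPM (middle 50% from 42.7 to 208 TPM), against 32.3 TPM in the 7065 genes with 1 peak and a symbol. The members carried 27.6 to 30.4% of all TPM of the table, depending on the library. The median main share was 76.4%, with 5% of genes below 51.2% and 5% above 98.6%. The main peak held under 60% in 155 genes, 60 to 75% in 178, 75 to 90% in 180 and at least 90% in 191.

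In most genes the order of the peaks was steady across cultures. The main peak was chosen by its mean over these same 6 libraries, which favoured a steady order. The main peak was the highest in all 6 libraries in 593 genes (84.2%), in 5 libraries in 49, in 4 in 36, in 3 in 18 and in 2 in 8. The SD of the share over the 6 libraries had a median of 3.21 percentage points, and in 5% of genes it exceeded 9.35 points. In 66 genes the share ranged over more than 20 points. Minor peaks lay near the authors' lower limit of 10 TPM in at least 1 library: 256 of 849 (30.2%) had a mean below 10 TPM, and 145 reached 10 TPM in exactly 1 library, against 7 main peaks. Just inside the limit were minor peaks of SP3 (10.02 TPM in its highest library), LMO4 (10.04 TPM) and HMGB1 (10.05 TPM), and lower peaks were not analysed here.

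The level of a gene and the share of its main peak went together. Of the genes with a summed level under 30 TPM 2.66% had several peaks, and this share was 11.2% from 30 to 100 TPM, 17.5% from 100 to 1000 TPM and 47.0% (62 of 132) at 1000 TPM and above. In the same 4 ranges the median main share was 58.3%, 72.2%, 90.9% and 98.3%. Across the 704 genes Spearman's correlation of summed TPM and main share was 0.72, a description, since genes share their libraries and since a minor peak had to reach 10 TPM whatever the gene's level. In the highest range 88.4% of minor peaks lay downstream of the main peak and 16.7% lay within 100 bp of an annotated start, against 55.8% and 54.7% below 30 TPM.

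**Figure D1:**
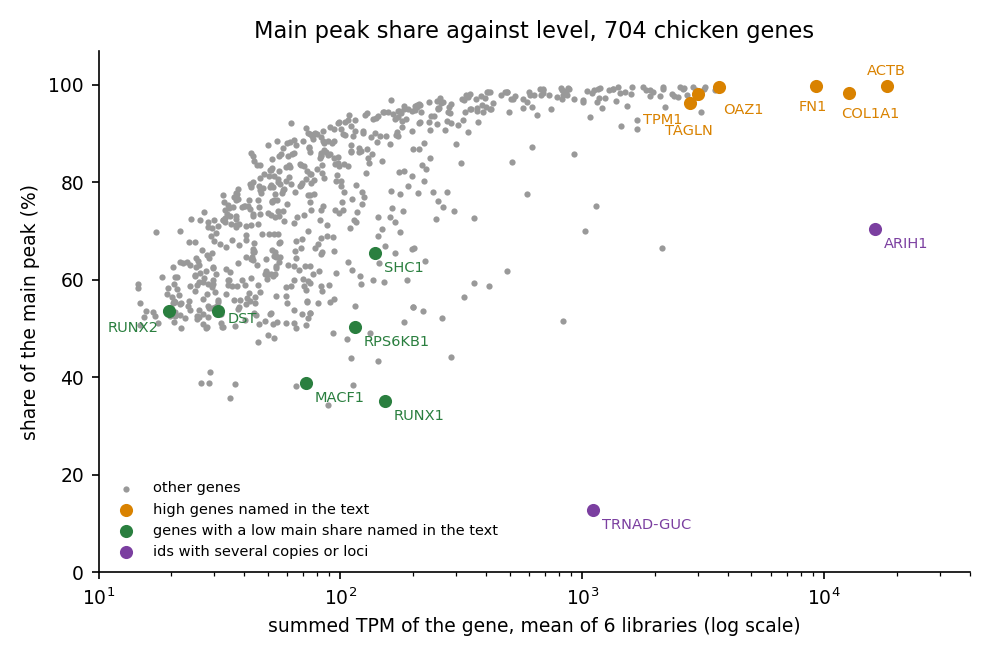
Each point is 1 of the 704 genes, with its summed TPM (mean of 6 libraries, log scale) against the share of its main peak. ACTB, FN1, COL1A1 and OAZ1 lie at the top right with main shares above 98%, RUNX1 and MACF1 lie below 40%, and the identifiers ARIH1 and TRNAD-GUC, which cover several copies or loci, stand apart.

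ACTB, which encodes cytoplasmic beta-actin, had the highest sum. Its main peak, at its annotated start on chromosome 14 (minus strand, position 4577555 of the build galGal6 as the deposited table gives it), had 19360, 18019, 21117 and 13322 TPM in the females and 18544 and 18137 TPM in the males. Its minor peak, 1077 bp downstream, had 43.2, 41.5, 41.02 and 28.9 TPM in the females and 34.7 and 38.9 TPM in the males. Both peaks were lowest in embryo 06 in high glucose, and the main share stayed between 99.77% and 99.81%. FN1, the gene of the matrix protein fibronectin, and OAZ1, an inhibitor of polyamine synthesis, had the same form, with main shares of 99.66 to 99.71% and 99.3 to 99.6%. A minor peak that reached the authors' limit in these genes was thus a trace of the gene's summed peaks.

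COL1A1, the alpha 1 chain of collagen I, had 7 peaks. Its main peak on chromosome 27 (plus strand, 5538175) had 11878, 12147, 12407 and 9373 TPM in the females and 14310 and 14845 TPM in the males. The other 6 lay 1668 to 2589 bp downstream, and the main share stayed between 98.1% and 98.6%. The highest of the 6, at 2051 bp, had 64.8, 77.1, 64.7 and 55.9 TPM in the females and 70.9 and 58.7 TPM in the males, which overlap. COL1A2, the partner chain, had a main share of 98.0 to 98.8% and minor peaks at 2366 and 2757 bp downstream. The matrix genes COL12A1 (98.8 to 99.5%) and THBS2 (97.5 to 98.3%) were alike. TAGLN, an actin-binding protein of contractile cells, had 5 peaks on chromosome 24 with 4 of them 1503 to 2345 bp downstream and a main share of 97.5 to 98.5%. TPM1, a tropomyosin that lies along actin filaments, also had 5, of which 2 lay upstream of the main peak by 205 and 981 bp, and its main share was 95.5 to 97.5%. ACTA2, smooth muscle alpha-actin, had 99.42 to 99.53%, and TMSB4X, the actin monomer-binding thymosin beta-4, had 97.0 to 97.9% with 4 peaks inside 1146 bp. Among their kept peaks, these strong cytoskeletal and matrix genes therefore had almost all of the signal at 1 place in all 6 cultures. Signal outside the peaks that passed the authors' level limit and promoter filter does not enter these shares.

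TRNAD-GUC, an aspartate tRNA, held 9 peaks at 9 annotated copies on chromosomes 1, 13 and 15. Of the copies 8 held 11.2 to 13.01% of the sum each, and the ninth held 3.41 to 4.04%. Copies of a tRNA can be near-identical, and how tags were divided among them was not tested, so these shares are uncertain. The sum fell and rose with all copies together: the highest copy had 197, 144, 172 and 106 TPM in the females and 67.6 and 166 TPM in the males. ARIH1, a ubiquitin ligase gene, was named at a pair of loci. On chromosome 10 its annotated start had 68.9, 78.6, 82.4 and 93.6 TPM in the females and 83.9 and 90.7 TPM in the males. On chromosome 33 the same identifier covered a peak of 9351 to 15096 TPM and one, 561 bp downstream and 2577 bp wide, of 2930 to 6166 TPM. The identifiers DGUOK, ITPKA, MXD3, PTTG1IP and TGM2 also had peaks at more than 1 locus, which leaves 697 genes at 1 locus for the distances.

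Genes with separate promoters in other vertebrates were described as a list. Of its 51 genes 32 had a peak and 16 had several, with a median main share of 71.3% and a median SD over the libraries of 5.40 points, against 76.4% and 3.21 points over all members, a difference that was not tested and not matched for level. RUNX1, a transcription factor of the RUNT family with a distal and a proximal promoter, had 5 peaks on chromosome 1. Its main peak lay at the proximal end and had 72.9, 47.7, 52.4 and 41.3 TPM in the females and 52.7 and 54.8 TPM in the males. The highest peak of the distal end, 81854 bp upstream, had 37.7, 49.8, 47.7 and 41.97 TPM in the females and 45.5 and 40.2 TPM in the males. In the females the distal peak exceeded the main one in embryo 05 in high glucose and in embryo 06 in high glucose, and in the other 4 libraries it was lower. SEPT9, a septin of the cytoskeleton, had 4 peaks over 51252 bp. Its main share was 68.2, 63.0, 60.3 and 45.2% in the females and 62.9 and 61.8% in the males, lowest in embryo 06 in high glucose. CAST, the calpain inhibitor calpastatin on chromosome Z, had 2 peaks 347 bp apart and a main share of 69.9 to 76.4%. TPM3 and TPM1, both of this list, lay far above its median, with 98.6 to 99.3% and 95.5 to 97.5% at their main peaks.

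Others of the list were picked for naming after their values were seen. MACF1 and DST, both long proteins that link actin and microtubules, used starts far apart at similar levels. In MACF1 on chromosome 23 the main start had 27.9, 29.8, 28.9 and 24.7 TPM in the females and 29.5 and 27.1 TPM in the males. Its start 10588 bp downstream had 18.4 to 28.8 TPM, and another upstream of both had 17.3 to 24.7 TPM. The main share was 34.4 to 43.9%, and male and female cultures overlapped. In DST on chromosome 3 the starts lay 124995 bp apart, with a main share of 47.5 to 57.9%. SHC1, an adaptor of growth factor receptors, had a main share of 65.6 to 75% in the females and of 56.7 and 59.8% in the males. The groups did not overlap, which was so between the sexes in 167 of the 704 members. RUNX2, the transcription factor of bone formation, had 2 peaks 1335 bp apart with shares of 45.0 to 64.3%.

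Among the genes nearest to an even split were MT, IGFBP3, RPS6KB1 and KMT2C. IGFBP3, a binding protein of insulin-like growth factors, had its main peak 721 bp and its second 0 bp from the annotated start, and a main share of 38.7 to 58.7%. KMT2C, a histone H3 lysine methyltransferase, used starts 17278 bp apart at 45.2 to 52.1%. In RPS6KB1, the kinase of ribosomal protein S6, the second start 18725 bp downstream had 56.6, 57.2, 59.4 and 55.0 TPM in the females and 57.9 and 56.1 TPM in the males. The main start had 41.5, 42.6, 49.8 and 90.3 TPM in the females and 45.7 and 76.1 TPM in the males. The second start was level in all libraries, and the main one was higher than it only in high glucose in embryos 06 and 07. The identifier MT on chromosome 7 had 46.7 to 57.2%.

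Among the kept peaks, the second lay close to the main one in most genes. By the paper, kept peaks lay within 3 kb of a promoter region or were classed as promoters. This filter favoured short distances, and its part in them was not tested. Over the 697 genes the median distance was 687 bp (middle 50% from 312 to 4171 bp), and the second peak lay downstream in 413 (59.3%) and upstream in 284. Up to 100 bp apart were 15 genes, 149 lay 100 to 300 bp apart, 224 lay 300 to 1000 bp apart, 177 lay 1000 to 10000 bp apart and 132 (18.9%) lay farther. Their median main share was 71.2%, 76.0%, 79.7%, 83.5% and 69.7% in this order, and the median SD over the libraries was 4.75, 3.43, 2.80, 2.66 and 4.27 points. The share was thus highest and steadiest between 1000 and 10000 bp, in ranges that were not matched for level. The median distance itself was 597 bp in genes under 30 TPM and 1269.5 bp at 1000 TPM and above. Main and second peaks were tied by the table to the same transcript in 345 genes and to different ones in 359, and among the genes over 10000 bp apart the transcript was the same in 19 of 132.

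**Figure D2:**
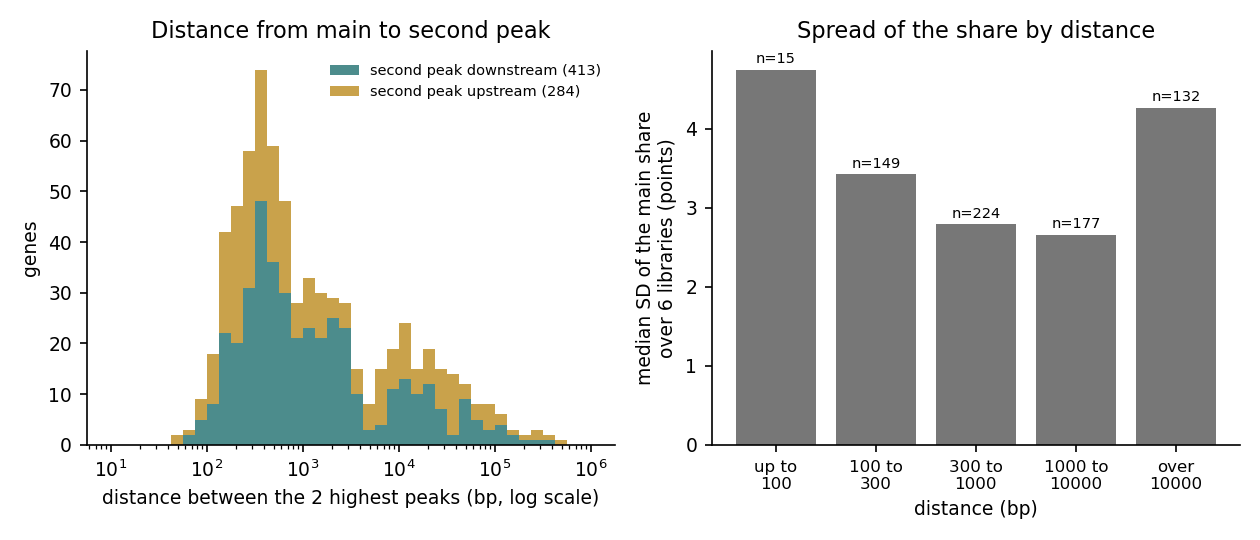
The left panel counts the 697 genes by the distance between their 2 highest peaks (bp, log scale), with those whose second peak lies downstream or upstream of the main one in different colours. The right panel gives the median SD of the main share over the 6 libraries (percentage points) for 5 ranges of distance, which was 4.75 points up to 100 bp, 2.66 points from 1000 to 10000 bp and 4.27 points above.

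Main peaks sat at annotated starts more often than minor ones. Of the main peaks 518 (73.6%) lay within 100 bp of an annotated start, of the 849 minor peaks 369 (43.5%), and of the only peaks of other genes 86.2%. Both of the 2 highest peaks lay at a start in 230 genes, only the main in 288, only the second in 101 and neither in 85. In the authors' annotation 638 main and 672 minor peaks lay in promoters within 1 kb, 28 and 85 within 1 to 2 kb, and 6 and 44 within 2 to 3 kb. The authors' filter for promoter peaks favoured these places. The median width was 212 bp for main peaks, 174 bp for second peaks and 164 bp for only peaks. A total of 80 peaks, in 68 genes, lay over 3 kb from a start, and 48 of these were minor. The table ties such peaks to the nearest transcript of the strand, and whether they belong to it was not tested.

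The widest pairs were those of SASH1, ACO1, KALRN, FOXP1 and RBMS3. In SASH1, a scaffold protein, the peaks lay 496419 bp apart on chromosome 3 and the main share was 69.8 to 85.7%. In KALRN, a guanine nucleotide exchange factor, both peaks lay at annotated starts 381043 bp apart. Its main share was 56.1, 62.7, 74.7 and 60.5% in the females and 82.9 and 75.5% in the males. FOXP1, a forkhead transcription factor, used starts 257995 bp apart at 56.6 to 68.4%, and RBMS3, an RNA-binding protein, had a weak start 256132 bp upstream of its main one. ACO1, the cytosolic aconitase that also binds iron-responsive RNA, was placed here by a main peak of 6 bp width 337367 bp from its annotated start on chromosome Z, in the intergenic class. That peak had 31.3, 27.1, 35.98 and 27.5 TPM in the females and 25 and 25.7 TPM in the males, while the annotated start had 14.4, 15.2, 15.6 and 16.8 TPM and 12.96 and 15.5 TPM.

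Among the narrowest pairs were ARPC1A (47 bp), MFAP2 (53 bp), NPEPPS (61 bp) and HIST1H2A4L4 (63 bp). In ARPC1A, a subunit of the actin-nucleating Arp2/3 complex, the main share was 59.97 to 65.4%. In MFAP2, a protein of elastic microfibrils, it was 73.7, 73.7, 86.8 and 73.6% in the females and 79.4 and 69.8% in the males, so embryo 06 in F12 stood apart from the other females. HIST1H2A4L4, a histone H2A gene, had 94.2 to 96.2%.

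The question of sex was put to the share of the main peak. The log2 ratio of main to other peaks was compared between 2 male and 4 female cultures in 1 model that also held the medium, with limma and Benjamini-Hochberg adjustment over 753 genes, LOC identifiers included. The ratio was called in 13 members at an adjusted p under 0.05, beside a background of 14 of 753 genes (1.86% called). It was higher in males in 7 (background 1.06%) and lower in 6 (0.797%), and 2 of these 6 lie on chromosome W and have no share in males. At an unadjusted p under 0.05 there were 106 genes (14.1%), of which 96 were members. Of the 13 members 11 lay off chromosome W and none on Z. In 8 of these 11 the other peaks moved more than the main peak, the exceptions being AHCY, DDIT3 and SCG2. That count uses the values that called the genes, and no share over all members stands beside it. The 2 highest peaks lay over 10 kb apart in 6 of 11, beside 18.9% of the 697 genes, with no test of the difference. A peak needed 10 TPM in only 1 library to enter the data. The minor peaks of ARHGAP32, FHL3, SPECC1, VPS8, MYCBP and CERS2 and the 2 intergenic peaks of AHCY reached this in female cultures only. The minor peaks of SERPINE2 and CDK14 and the third peak of SCG2 reached it in male cultures only. This limit favoured a sex difference in all of these peaks.

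The number called rested on single cultures: it was 3 without the male culture in high glucose, 4 without the male culture in F12, 8 without embryo 05 in high glucose and 6 without embryo 06 in high glucose. AHCY was called in each of these. A pseudocount of 5 TPM in place of 1 TPM removed the calls of FHL3, VPS8, SPECC1, MYCBP, CERS2, DDIT3, SERPINE2 and CDK14. It added a call for FBXO9. With 1 value per embryo the males had 1 value, so that fit held no spread between male embryos. The calls described below take the culture as the unit. Apart from those of AHCY and HINTW, they were lost with the embryo as the unit.

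**Figure D3:**
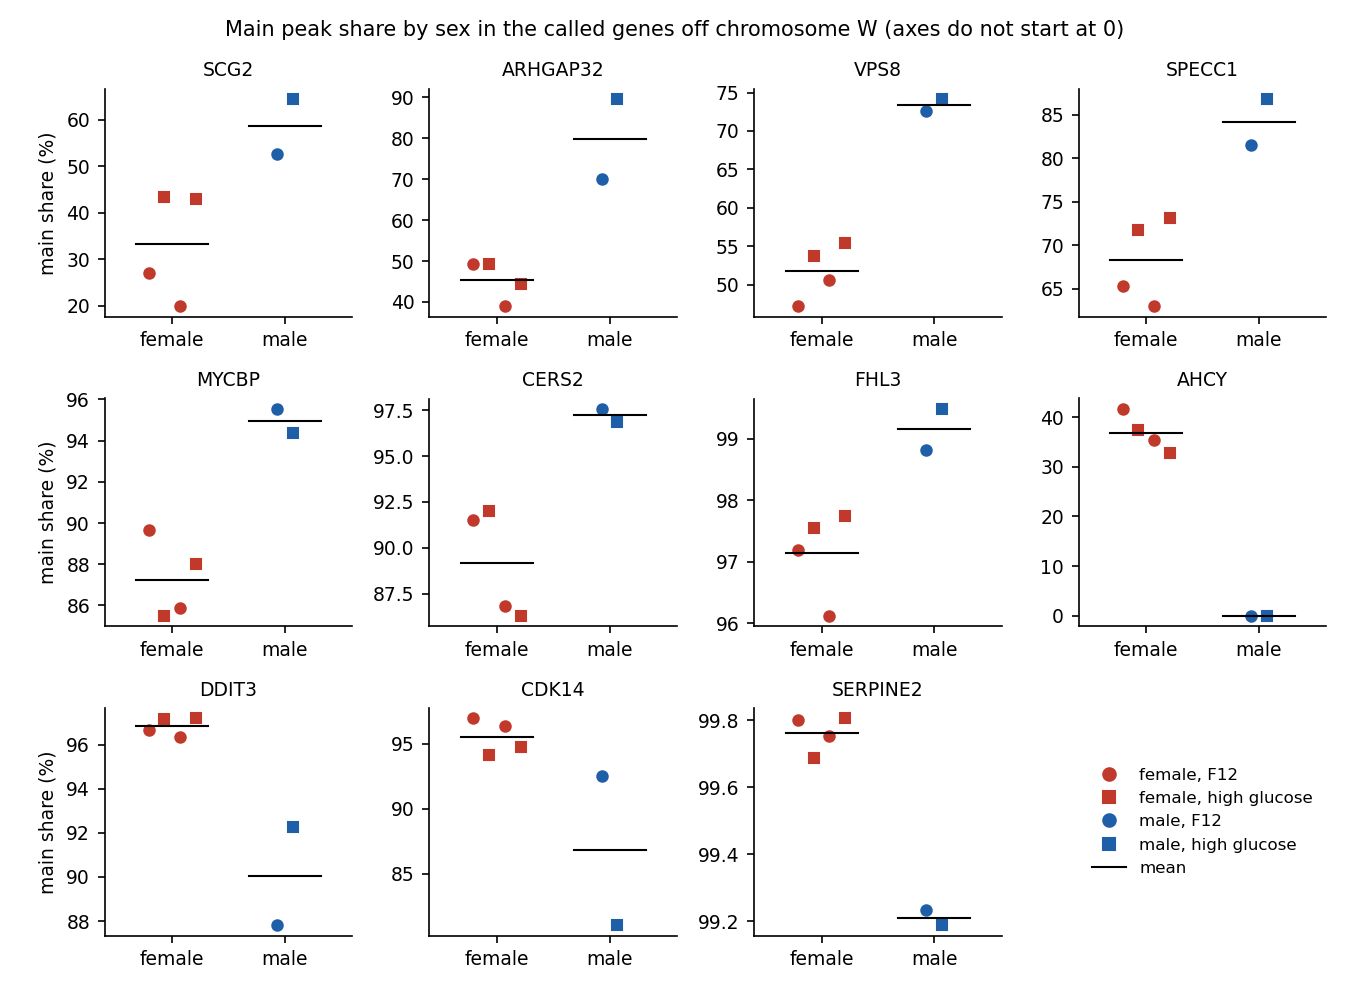
Main peak share (percent) in each of the 4 female and 2 male cultures for the 11 called genes off chromosome W; circles are F12, squares are high glucose and lines are means. In every panel the male and female cultures do not overlap, and AHCY is at 0 in both male cultures against 32.8 to 41.7% in the females. The genes were chosen by the test of these same shares, and the sexes did not overlap in 167 of all 704 members.

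In SCG2, which encodes secretogranin II of dense-core secretory vesicles, there were 3 peaks on chromosome 9 (minus strand). The peak at the annotated start (8392505) had 7.72, 14.98, 6.17 and 17.1 TPM in the females and 30.6 and 52.7 TPM in the males. The peak 3321 bp upstream had 12.8, 11.8, 16.9 and 15.8 TPM in the females and 11.03 and 11.4 TPM in the males. The peak at the start was the lower of these in both female cultures in F12, slightly the higher in both in high glucose, and clearly the higher in both male cultures. Its share was 33.3% ± 11.7 (SD, n = 4) in the females and 58.5% (n = 2) in the males. The log2 ratio differed by 1.47 ± 0.22 (SE, adjusted p = 0.023, limma with Benjamini-Hochberg), and the peak at the start itself rose 3.63-fold (adjusted p = 0.0030). The third peak, 1250 bp upstream, rose 2.25-fold (adjusted p = 0.044). Without embryo 06 in high glucose the adjusted p of the share was 0.056, without the male culture in F12 0.434, and without that in high glucose 0.137.

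ARHGAP32, a GTPase-activating protein, used starts 133572 bp apart on chromosome 24, both annotated. The main start had 7.90, 8.41, 8.26 and 9.62 TPM in the females and 8.37 and 11.3 TPM in the males. The downstream start had 8.17, 8.67, 12.9 and 12.1 TPM in the females and 3.59 and 1.324 TPM in the males. The main start was level between the groups while the other was 4.27-fold lower in the male mean (adjusted p = 0.058 as a single peak), and the highest peak was a different one in females and males. The share was 45.4% ± 4.90 in the females and 79.8% in the males (log2 ratio 1.96 ± 0.32, adjusted p = 0.024, limma). It was not called without the male culture in high glucose (adjusted p = 0.374), without embryo 05 in high glucose (0.073) or without embryo 06 in high glucose (0.071).

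In FHL3 and SPECC1 a downstream start was lower in males. In FHL3, a LIM-domain protein of the actin cytoskeleton, the main start on chromosome 23 had 329, 348, 414 and 338 TPM in the females and 285 and 258 TPM in the males. The start 12063 bp downstream had 9.51, 8.76, 16.7 and 7.797 TPM in the females and 3.40 and 1.324 TPM in the males, 4.52-fold lower in males (adjusted p = 0.042, limma). In SPECC1, a cytoskeletal protein with a calponin homology domain, the main start on chromosome 19 had 29.2, 32.1, 29.5 and 34.3 TPM in the females and 31.3 and 35.2 TPM in the males. The start 20236 bp downstream had 15.4, 12.6, 17.3 and 12.6 TPM in the females and 7.08 and 5.38 TPM in the males, 2.33-fold lower in males (adjusted p = 0.033, limma). In both genes the male values of the downstream start lay below every female value, and in FHL3 so did those of the main start. The share of the main start rose from 97.2% ± 0.72 to 99.2% in FHL3 (log2 ratio 1.42 ± 0.22, adjusted p = 0.023) and from 68.3% ± 4.88 to 84.1% in SPECC1 (1.18 ± 0.19, adjusted p = 0.024).

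VPS8, a subunit of the endosomal tethering complex CORVET, had both of its peaks off an annotated start on chromosome 9. The main one, 5632 bp from the annotated start in the 5′ UTR class, had 8.35, 10.6, 11.6 and 16.5 TPM in the females and 13.4 and 12.9 TPM in the males. The other, 19711 bp upstream and in the intergenic class, had 9.33, 9.11, 11.4 and 13.3 TPM in the females and 5.06 and 4.5 TPM in the males. The main share was 51.7% ± 3.64 in the females and 73.4% in the males (log2 ratio 1.20 ± 0.19, adjusted p = 0.023, limma). FHL3, SPECC1 and VPS8 lost the call without either male culture and without embryo 05 or 06 in high glucose, with adjusted p from 0.052 to 0.490.

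In MYCBP and CERS2 the peaks that were lower in males lay close to the start. MYCBP, which encodes a binding partner of the MYC protein, had a peak 153 bp downstream of its start on chromosome 23 with 16.96, 25.2, 20.6 and 27.2 TPM in the females and 6.62 and 9.18 TPM in the males. It was 2.85-fold lower in males (adjusted p = 0.0077, limma), while the main peak had 147, 149, 125 and 200 TPM and 142 and 154 TPM. The share of the main peak rose from 87.3% ± 1.94 to 94.97% (log2 ratio 1.35 ± 0.23, adjusted p = 0.030), and with the embryo as a replicate block the adjusted p was 0.054. CERS2, the synthase of very-long-chain ceramides, had a peak 312 bp downstream on chromosome 25 with 5.56, 5.25, 11.9 and 11.6 TPM in the females and 1.56 and 1.94 TPM in the males. Its main share was 89.2% ± 3.02 in the females and 97.2% in the males (log2 ratio 1.58 ± 0.29, adjusted p = 0.041). In MYCBP and CERS2 the main peak had overlapping values in the 2 groups. Both calls were lost without embryo 06 in high glucose (adjusted p = 0.056 and 0.090) and without either male culture (0.374 to 0.623), and that of MYCBP also without embryo 05 in high glucose (0.077).

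DDIT3, SERPINE2 and CDK14 went the other way, with a larger part of the signal at a weak start in males. In DDIT3, the stress transcription factor CHOP, the main peak on chromosome 33 had 458, 217, 64.2 and 207 TPM in the females and 109 and 126 TPM in the males. The peak 662 bp downstream had 15.7, 6.31, 2.43 and 5.97 TPM in the females and 15.2 and 10.6 TPM in the males. The level of the gene varied widely among the females, yet its main share was 96.3 to 97.2% in all 4 of them, against 87.8 and 92.2% in the males (log2 ratio -1.60 ± 0.23, adjusted p = 0.023, limma). In SERPINE2, the protease inhibitor protease nexin-1, the peak 208 bp downstream on chromosome 9 had 4.31, 4.73, 4.17 and 2.07 TPM in the females and 13.9 and 11.4 TPM in the males beside a main peak of 1068 to 2156 TPM. Its main share was 99.76% ± 0.055 in the females and 99.21% in the males (log2 ratio -1.51 ± 0.23, adjusted p = 0.023). DDIT3 lost the call without embryo 06 in high glucose (adjusted p = 0.052), SERPINE2 without embryo 05 in F12 (0.056), and both without either male culture (0.264 to 0.435).

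CDK14, a cyclin-dependent kinase that pairs with cyclin Y, had a second annotated start 61186 bp downstream on chromosome 2. It had 1.71, 3.59, 2.17 and 3.40 TPM in the females and 4.41 and 13.9 TPM in the males, so that the male culture in high glucose stood above all others. The main share was 95.5% ± 1.33 in the females, and 92.5 and 81.0% in the males (log2 ratio -1.32 ± 0.24, adjusted p = 0.041, limma). The adjusted p was 0.083 with the embryo as a replicate block, and from 0.056 to 0.838 without 5 of the 6 libraries in turn, with embryo 06 in F12 the exception.

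Another 6 genes, 3 each way, came next in the order of p and were not called. FBXO9, an F-box protein, had an intergenic main peak of 129 to 171 TPM in the females and 254 and 251 TPM in the males (adjusted p of the share 0.055, limma). CDC42SE1, a small effector of CDC42, had a peak 4056 bp upstream with 17.3, 18.3, 5.65 and 4.48 TPM in the females and 0.184 and 0.618 TPM in the males. That peak reached the authors' limit of 10 TPM in female cultures only. The share of CDC42SE1 gave an adjusted p of 0.055, and of 0.0497 with the embryo as a replicate block. HMGB1, a chromatin protein, gave an adjusted p of 0.064. APBB2, an adaptor of the amyloid precursor protein, gave 0.077, NET1, a guanine nucleotide exchange factor, gave 0.083, and FAM65C gave 0.112. In each of these genes the 2 male shares lay outside the range of the 4 female ones, which held in 167 of the 704 members. The minor peaks of HMGB1 and NET1 also reached 10 TPM in female cultures only. For HMGB1 the female and male means were 9.09 and 3.05 TPM, and for NET1 8.84 and 8.50 TPM. That of APBB2, at 7.14 and 15.6 TPM, reached 10 TPM in male cultures only. This limit favoured a sex difference in such peaks.

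The largest change of a share off chromosome W was that of AHCY, through 2 far peaks not tested for belonging to this gene. AHCY encodes adenosylhomocysteinase, which removes S-adenosylhomocysteine after methylation reactions. The table ties 3 peaks on the plus strand of chromosome 20 to it: its own start at 1530265 and 2 intergenic peaks 83109 and 74455 bp upstream of the annotated start. The farther one had 58.4, 58.0, 40.6 and 25.5 TPM in the females and was listed at 0 in both males. The nearer one had 53.6, 62.5, 36.3 and 20.7 TPM in the females and was also listed at 0 in both males. Each far peak was therefore high in all 4 female cultures, lowest in embryo 06 in high glucose, and not detected at this depth in the male ones. Set against the floor of 3 tags per library, 0.270 TPM on average, they were at least 169-fold and at least 160-fold lower in males (adjusted p = 0.00055 and 0.0015, limma with Benjamini-Hochberg over 9084 peaks). The start of the gene itself had 28.2, 34.8, 38.0 and 31.8 TPM in the females and 23.4 and 20.03 TPM in the males (33.2 ± 4.19 against 21.7, adjusted p = 0.145). The share of the main peak by the mean over all libraries, the far one, was 36.8% ± 3.76 in the females and 0% in the males (log2 ratio -3.73 ± 0.17, adjusted p = 2.26e-05). The size of this ratio depends on the pseudocount.

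The far peaks of AHCY interleave with MANBAL1 on the opposite strand, a gene that was singled out after the values were seen. From the first far peak (1447030) to the start of MANBAL1 (1458105) lie 11075 bp with 5 peaks, 3 of them at 0 in both males. The start of MANBAL1 had 41.01, 43.1, 42.5 and 36 TPM in the females and 11.3 and 9.001 TPM in the males, 4.00-fold lower in males (adjusted p = 0.0011, limma). Its middle peak, 2981 bp downstream, had 15.9, 15.2, 13.4 and 13.5 TPM in the females and 0 in both males, at least 53.7-fold lower (adjusted p = 0.0011). Its last peak, 8781 bp downstream, had 21.99, 26.1, 23.4 and 20.7 TPM in the females and 10.7 and 13.7 TPM in the males (adjusted p = 0.051). The neighbours overlapped between the sexes: DYNLRB1, a dynein light chain, had 274 ± 25.6 TPM in the females and 290 TPM in the males (adjusted p = 0.832), and ITCH, a ubiquitin ligase, had 10.4 ± 1.49 and 11.1 TPM (adjusted p = 0.909). In the RNA-seq of 1 culture per sex, both in high glucose, MANBAL1 had 24.9 FPKM in female embryo 05 and 1.99 FPKM in male embryo 07, and AHCY had 53.6 and 33.2 FPKM, with no replicate check. In the whole table of peaks off W 4 were at 0 in both males and above 5 TPM in every female, and 3 of them were these. All 3 reached the authors' limit of 10 TPM in female cultures only, so this limit favoured their sex difference. The reverse count, of peaks at 0 in the females and high in males, was not made over the whole table.

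**Figure D4:**
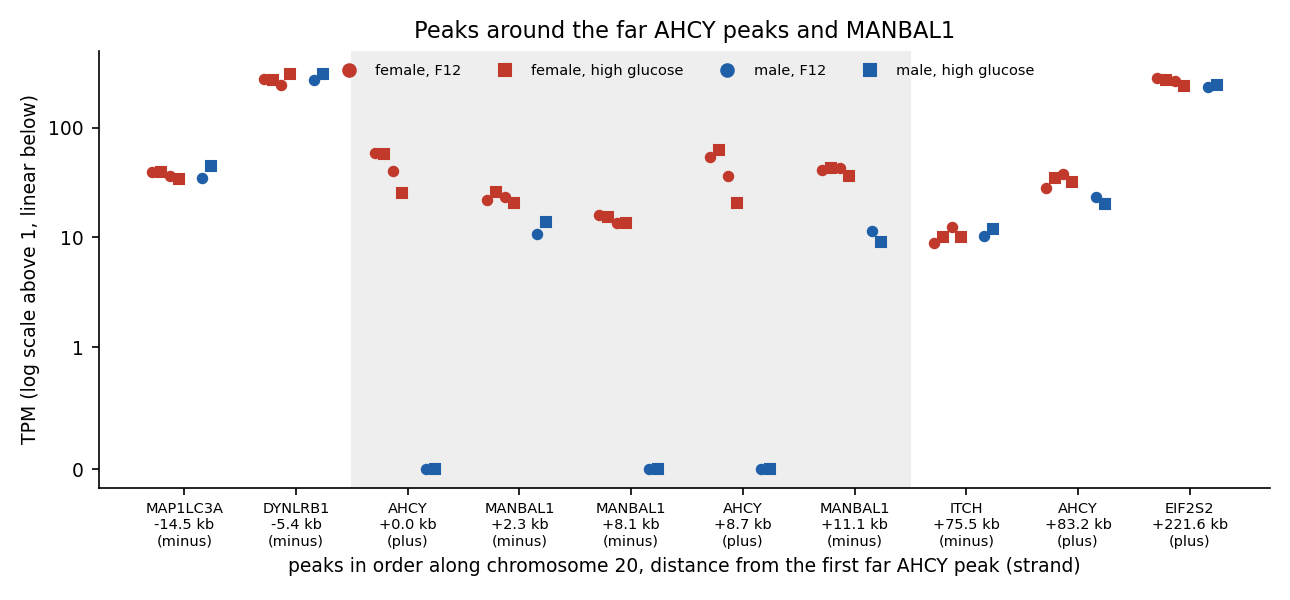
TPM of 10 peaks in their order along chromosome 20, with the distance from the first far AHCY peak and the strand under each; red points are the 4 female and blue points the 2 male cultures, and the scale is logarithmic above 1 TPM and linear below. Inside the grey stretch 3 peaks are at 0 in both males, and MAP1LC3A, DYNLRB1, ITCH and EIF2S2 on either side overlap between the sexes.

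HINTW and HNRNPKL lie on chromosome W, which males lack. HINTW, a W-linked gene of the HINT family, had 1433, 1825, 1907 and 1868 TPM at its main peak in the females and 0.184 and 0.0882 TPM in the males, under the floor of 3 tags. The second peak, 495 bp downstream, had 8.52 to 11.9 TPM in the females and 0 in the males. HNRNPKL had 60.04, 60.4, 68.1 and 65.3 TPM at the main peak and 11.4, 12.9, 14.8 and 14.4 TPM at the second, 344 bp upstream, in the females, and 0 at both in the males. Within the females the main share was 99.2 to 99.6% and 81.9 to 84.0%. A share does not exist in the males, and the calls of these 2 genes (adjusted p = 1.11e-05 and 0.0011, limma) are those of a pseudocount ratio. Both genes were thus seen in the female libraries only, as their labels have it.

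In 6 genes the highest peak was a different one in every male and every female library. Besides ARHGAP32 these include TSC22D1, MPRIP and ARID5B. In TSC22D1, a leucine-zipper protein with long and short forms, the starts lay 76277 bp apart on chromosome 1. The main start had 20.01, 28.6, 24.1 and 68.1 TPM in the females and 12.1 and 14.2 TPM in the males, and the upstream one had 17.1, 12, 18.1 and 15.8 TPM and 14.8 and 16.2 TPM. The main start gave 65.7% ± 12.6 in the females and 45.9% in the males. In MPRIP, which binds myosin phosphatase, the shares were 51.4 to 64.1% and 46.6 and 49.7%. In ARID5B, an AT-rich DNA-binding protein, they were 53.7 to 60.9% and 47.0 to 48.3%. None of these 3 was called for its share.

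Tested singly, 25 of the 1553 member peaks (1.61%) changed with sex, beside a background of 166 of 9084 (1.83% called), with limma and Benjamini-Hochberg. There were 9 higher in males (background 0.914%) and 16 lower (0.914%), 15 main and 10 minor, in 20 genes. With the embryo as a replicate block 78 of the 9084 peaks were called, and without the male culture in F12 30, without that in high glucose 37, without embryo 05 in high glucose 61 and without embryo 06 in F12 81. Those given next were singled out after the values were seen. The main peak of UBB, a polyubiquitin gene, had 4474, 4422, 4225 and 4005 TPM in the females and 2029 and 2363 TPM in the males (adjusted p = 0.016). That of MYL6, a myosin light chain, had 2653, 2408, 2543 and 2191 TPM in the females and 1553 and 1522 TPM in the males (adjusted p = 0.042). That of MKX, a transcription factor of tendon, had 113, 116, 95.3 and 112 TPM in the females and 205 and 185 TPM in the males (adjusted p = 0.032). In these 3 genes the share of the main peak was not called (adjusted p = 0.948, 0.590 and 0.890).

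In GRB2, an adaptor between receptors and RAS, 1 peak was called lower in males, and its neighbour was higher in males without a call. This gene too was singled out after its values were seen. One of 4 peaks on chromosome 18, 5953 bp upstream of the main one, had 21.4, 23.1, 25.6 and 20.7 TPM in the females and 0.368 and 1.68 TPM in the males (adjusted p = 0.0015, limma). The peak 113 bp beyond it had 4.85, 6.39, 5.65 and 5.64 TPM in the females and 11.7 and 9.88 TPM in the males (adjusted p = 0.173). The first was high in every female and near the floor in 1 male culture, and the other was higher in both males. The first reached the authors' limit of 10 TPM in female cultures only, and the other only in the male culture in F12. This limit favoured a sex difference in both peaks. The main peak, 141 to 206 TPM in the females and 144 and 164 TPM in the males, had adjusted p = 0.772.

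On chromosome Z both kinds of peaks were higher in males. Of 370 genes with a symbol on Z 25 (6.76%) had several peaks, against 8.95% on chromosomes 1 to 5, 9.91% on 6 to 10 and 9.10% on 11 and above. The ratio of male to female means had a median of 1.35 for the main peaks (middle 50% from 1.12 to 1.66) and 1.28 for the others (1.15 to 1.56). It was 1.47 for the only peaks of 345 other Z genes, and 0.978 and 0.950 for main and other peaks of 676 genes on the other chromosomes. The main peak was higher in males in 22 of the 25 genes, the others in 21, and both in 20. No share on Z was called. RPS6, a protein of the small ribosomal subunit, had 930, 931, 1001 and 892 TPM at its main peak in the females and 1653 and 1452 TPM in the males (1.65-fold, adjusted p = 0.026, limma), and its minor peaks together were 1.48-fold. TPM2, a tropomyosin, rose 1.70-fold at its main peak (adjusted p = 0.018) beside 1.20-fold at the others. RPS23 gave 1.66 and 1.28, with adjusted p = 0.093 for its main peak. LOX, which cross-links collagen and elastin, gave 1.01 and 0.988, so main and minor peaks of this Z gene were level between the sexes.

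Main and second peaks of a gene moved together only in part. Across 702 genes with the W genes left out, Pearson's r of their log2 differences was 0.32 by sex (Spearman 0.31) and 0.37 by medium (0.31), and the sign was shared in 61.8% and 61.4%. These values are across genes, which share their libraries and are not independent. The median over genes of the correlation across the 6 libraries was 0.34 for pairs up to 100 bp apart, 0.47 from 100 to 300 bp, 0.49 from 300 to 1000 bp, 0.34 from 1000 to 10000 bp and 0.25 farther.

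No share was called by medium in the test of cultures. High glucose was set against F12 with 3 libraries each, and limma with Benjamini-Hochberg called 0 of 753 genes (0% called), with 32 at an unadjusted p under 0.05 (4.25%), of which 30 were members. The 3 embryos form pairs, and with the embryo as a replicate block 3 genes were called: SCG2, UBALD1 and 2KTGRL. No single peak was called by medium (0 of 9084, 470 at an unadjusted p under 0.05), and no gene had a called interaction of sex and medium (2 of 753 at an unadjusted p under 0.05).

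**Figure D5:**
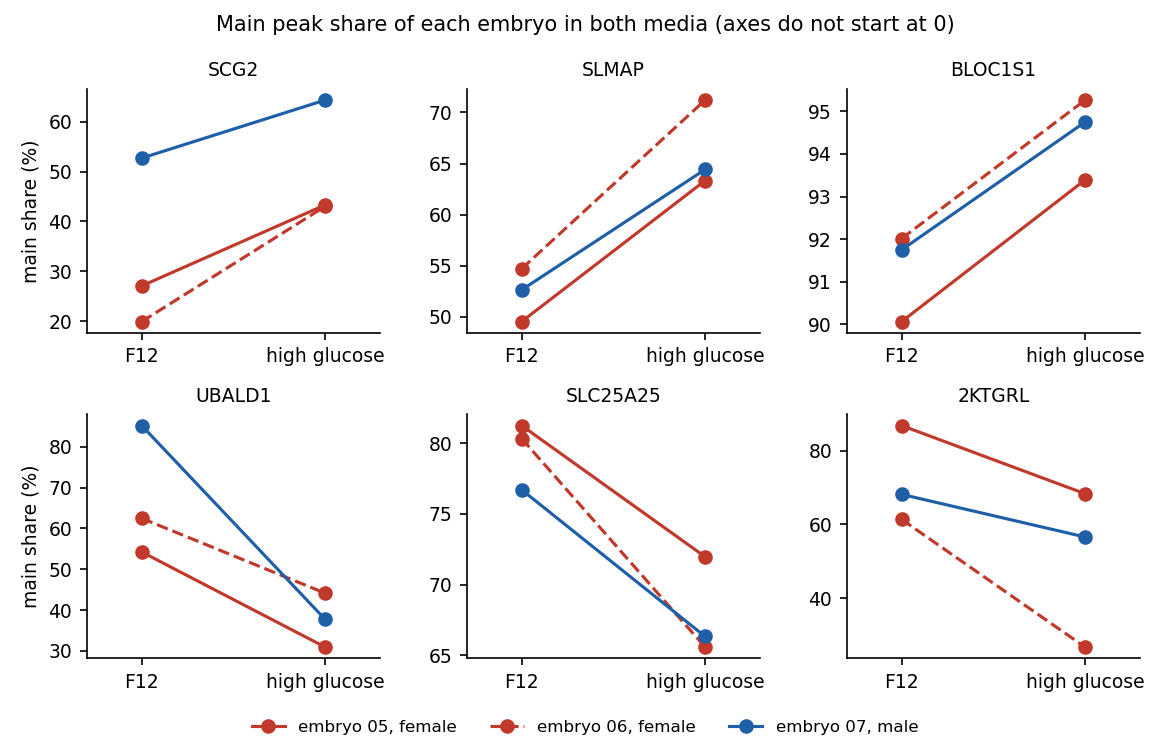
Main peak share (percent) of 6 genes in F12 and in high glucose, with 1 line per embryo (red solid 05, red dashed 06, blue 07). SCG2, SLMAP and BLOC1S1 rise and UBALD1, SLC25A25 and 2KTGRL fall in all 3 embryos.

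In SCG2 the share of the start peak was higher in high glucose by 16.2, 23.1 and 11.6 points in embryos 05, 06 and 07 (log2 ratio 1.03, adjusted p = 0.94 in the test of cultures and 0.031 with the replicate block, limma). In UBALD1, a small protein with a UBA-like domain, 2 peaks lay 79 bp apart on chromosome 14. The main one had 11.5, 18.1 and 41.2 TPM in F12 and 5.69, 10.95 and 5.29 TPM in high glucose. The other had 9.69, 10.9 and 7.17 TPM in F12 and 12.7, 13.9 and 8.74 TPM in high glucose. The first was the higher one in F12 and the lower one in high glucose in every embryo, and its share fell by 23.3, 18.3 and 47.4 points (log2 ratio -1.75, adjusted p = 0.031 with the replicate block). The identifier 2KTGRL, outside the naming rule and picked for this call, fell by 18.4, 34.5 and 11.5 points (adjusted p = 0.043 with the block) at a level of 14.5 TPM.

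SLMAP, a membrane-anchored scaffold protein, had annotated starts 54136 bp apart on chromosome 12. The downstream one had 57.2, 44.0 and 39.8 TPM in F12 and 31.4, 15.8 and 24.7 TPM in high glucose, and the share of the main one was higher in high glucose by 13.8, 16.5 and 11.8 points (adjusted p = 0.109 with the block). In SLC25A25, a mitochondrial carrier of ATP-Mg and phosphate, the share of the main start was lower by 9.27, 14.7 and 10.4 points (adjusted p = 0.109). BLOC1S1, a subunit of a complex that forms lysosome-related organelles, differed by 3.32, 3.25 and 3.00 points (adjusted p = 0.148), and CDK14 by -2.82, -1.63 and -11.5 points (0.148). In USP51, a deubiquitinase with 3 peaks within 478 bp, the main peak was the highest in high glucose in all 3 embryos and in F12 in none (adjusted p = 0.370). None of these 5 genes passed the threshold with the block.

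The lists by function were set beside all genes, with no test. Of the matrix genes with a peak 18 of 46 (39.1%) had several, and of the actin cytoskeleton genes 16 of 46 (34.8%), against 9.06% of all genes with a symbol. Their median summed levels were 725 and 401 TPM, against 34.9 TPM over all, and their median main shares were 97.1% and 95.9%. Of the amino acid stress genes 7 of 22 had several, DDIT3, DDIT4, ASNS and PHGDH among them, of the glycolysis and hypoxia genes 4 of 27, and of the chaperones 3 of 27. Of the cell cycle genes it was 1 of 33, CCND2, and of the cholesterol synthesis genes 1 of 24, FDFT1, at median levels of 41.7 and 92.6 TPM. Among list members of 30 to 1000 TPM several peaks were found in 5 of 26 matrix, 8 of 33 actin, 7 of 19 stress and 12 of 21 separate-promoter genes, and in 1 of 25 cell cycle, 1 of 22 cholesterol, 2 of 18 glycolysis and hypoxia and 3 of 23 chaperone genes, beside 11.2% and 17.5% of all genes in the 2 ranges of that level. Called for the share by sex were FHL3 of the 16 actin genes, DDIT3 of the 7 stress genes and 0 of the 18 matrix genes, counts too small to set against the 1.86% called over all.

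The summed peaks were set beside the RNA-seq of the same cultures. For 703 members Spearman's correlation of summed TPM and FPKM was 0.717 in female embryo 05 and 0.716 in male embryo 07, both in high glucose, and with the main peak alone it was 0.710 and 0.714. For 7053 genes with 1 peak it was 0.746 and 0.744. The log2 ratio of male to female in these libraries correlated between methods at r = 0.742 with the sum and 0.657 with the main peak alone (701 genes off W). SCG2 had 24.8 FPKM in the female and 50.4 FPKM in the male library, and its summed peaks were also higher in the male. DDIT3 went opposite ways, with 104 and 169 FPKM beside sums of 224 and 137 TPM, and so did FBXO9, with 35.7 and 31.6 FPKM beside 185 and 302 TPM. All of these are across genes and describe 2 libraries.

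In quail 776 genes with 1729 peaks and in duck 609 genes with 1357 peaks were found by the same rule. Of the 578 chicken genes whose symbol the quail table holds 334 had several peaks in quail too, which is 57.8% of the chicken's and 49.8% of the quail's. With duck it was 209, or 39.5% of the 529 chicken and 40.98% of the 510 duck genes. Of all 5949 symbols shared with quail 11.3% had several peaks in quail and 9.72% in chicken. Of all 5315 shared with duck it was 9.60% in duck and 9.95% in chicken. The genes were not matched for level, and the overlap was not tested. Where both species had exactly 2 peaks, the same one by order along the gene was the higher in 193 of 231 genes in quail (83.5%) and 105 of 146 in duck (71.9%). With distances alike between the species this was 158 of 182 (86.8%) and 65 of 89 (73.0%), and the shares of the upstream peak then differed by a median of 6.78 and 12.3 points. Each species has its own genome annotation and its own 6 libraries, and the difference between quail and duck was not tested. Both media were used in each species. Quail had more female than male libraries, like chicken, and duck had more male than female ones. By the paper quail embryos were taken earlier in incubation and duck embryos later, at a stage equivalent to the chicken's. The part of sex in the differences from duck was not tested.

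Most of the largest differences came with distances between the peaks that were not alike in the species. PTMA, prothymosin alpha, had 98.3% at its upstream peak in chicken and 0.530% in quail, with distances of 3538 and 176 bp. FOSL2, CSRP1, JTB and SVIL in quail, and LOX, SERPINE2, DUSP8, PTGES3 and TLN1 in duck, also had distances that were not alike. HOMER3, a scaffold of synapses, had distances of 309 bp in chicken and 223 bp in quail, and its upstream peak held 17.1% (14.5 to 20.6% over the libraries) and 70.2% (61.6 to 78.1%). RPL32, a protein of the large ribosomal subunit, had distances of 263 bp in chicken and 282 bp in duck, and its upstream peak held 1.46% (1.09 to 1.99%) and 99.3% (99.2 to 99.5%). In these 2 genes the ranges over the libraries did not overlap between the species, which was so in 59 of the 182 quail and 54 of the 89 duck pairs with distances alike. Pairs were matched by order and distance only. Whether the upstream peak of chicken is the same start as that of the other species was not tested.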

How the data were processed

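The authors clustered the 5′ ends of CAGE tags, aligned to galGal6 with BWA 0.7.10-r789 and HISAT2 2.1.0, into peaks of at least 10 TPM in 1 library with PromoterPipeline, and ChIPseeker 1.32.0 tied each peak to a transcript of its strand. By the paper, its analysis used only peaks within 3 kb of a promoter region and others that a classifier called promoters. The deposited CAGE values are tags scaled to a common library total (RPM, called TPM here). For RNA-seq the deposited counts came from Trimmomatic 0.38 for trimming, HISAT2 2.1.0 for alignment and HTSeq 2.0.1 for counting, and the authors' FPKM from edgeR (3.42.2 in the submitters' notes). Its totals were 117340554 counts (female 05) and 80429399 counts (male 07), both high glucose, and it had no test. Positions are as deposited, and the table does not state whether they count from 0 or 1.

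Here log2((main peak TPM + 1)/(other peaks' TPM + 1)) was fitted by sex and medium with limma 3.58.1 (mean-variance trend, two-sided, R 4.3.3) over all 753 genes with several peaks, and log2(TPM + 1) over all 9084 peaks, each with Benjamini-Hochberg adjustment at 0.05. Fold changes in the text are ratios of mean TPM. Adjusted p-values are from these fits. Every value was a whole multiple of 1 tag within 0.05 tag, which gave the depths. TMM factors came from edgeR 4.0.16, and all other values and plots from Python 3.11.15 (numpy 2.4.6, pandas 2.3.3, matplotlib 3.10.9, scipy 1.17.1). The share fits were tested on simulated data with independent cultures, which cannot check the effect of cultures that share an embryo. A peak's distance to a start, its class and its gene are the authors'. Pairs in 2 species counted as alike when their distances differed by at most 100 bp or had a ratio of at least 0.8.

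Same-numbered cultures were read as 1 embryo, though the labels do not name the embryo. In the emu cultures of this series some numbers carry both sexes. Deviations from the group means correlated within the 2 female embryos (r = 0.488 for shares, 0.561 for peaks). The male pair could not be checked in this way. The embryo was used as a block, fixed for the medium and random for the sex. The consensus correlation within embryos was 0.219 for shares and 0.304 for peaks. Of the genes the rule below names, 2 are not reported here. Members, lists and tests were chosen with earlier results of these data known. Named by rule were the genes of smallest p (up to 8 called each way, or the 3 next), those whose highest peak differs between groups, the 5 with most peaks, highest sum, most even share, widest and narrowest distance, the 5 highest of 3 lists and of chromosomes Z and W, and the 3 most different from quail or duck each way. Alternatives were other pseudocounts, filters, merged peaks, the most upstream peak, diffSplice, TMM, other covariates and leaving out each library.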

Additional observations from a re-analysis of the deposited data

Results flagged for a closer look

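In each of 76 named genes the shares of the 4 female cultures were checked for 1 culture far from the other 3, by the gap to its neighbour over the range with Dixon's limit for 4 values. Chance passes this limit in about 1 in 20 groups, and 5 genes passed. In RPS6KB1, the kinase of ribosomal protein S6, embryo 06 in high glucose had a main share of 62.2%, against 42.3 to 45.6% in the others. In RBMS3 embryo 06 in F12 had 85.3%, against 79.8 to 80.7%. In MFAP2, a protein of elastic microfibrils, embryo 06 in F12 had 86.8%, against 73.6 to 73.7%. In COL12A1, a collagen of the fibril surface, embryo 06 in high glucose had 98.8%, against 99.3 to 99.5%. In RPS23, a ribosomal protein on chromosome Z, the same culture had 96.8%, against 98.0 to 98.2%. The cause was not tested.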

How the results depend on the processing

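Genes whose share differed by sex, 14 of 753, became 8 with a pseudocount of 5 TPM, 3 with 1 value per embryo, 22 at an adjusted p under 0.1, and 3 to 20 when each library was left out. They were 11 to 16 under the other alternatives, 13 with the replicate block (12 of them the same genes). With the pseudocount of 5 TPM most of the called genes off W lost their call, and FBXO9 gained one. By medium 0 genes became 3 with the replicate block and stayed 0 under all others. Peaks that differed by sex, 166 of 9084, became 78 with the replicate block, 206 with TMM, and 30 to 144 when each library was left out. By medium they were 0 throughout. AHCY kept its call under every alternative that could be fitted, having only 1 peak within 3 kb of a start. CDK14 lost it in 9. None of the 19 genes by sex and 6 by medium that were followed through the alternatives changed direction. The members were 502 to 689 genes with median main shares of 74.2 to 76.8% under merging, the 3 kb limit or a mean of 10 TPM. The planned edgeR tests on recovered tags were not run. The causes of these changes were not tested. With 1 male embryo, a difference between embryos cannot be told from one between sexes, and minor peaks of about 10 TPM limit small shares.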
